A study of Mus musculus and Homo sapiens with 22 samples.

Results

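PROX1 occupancy was examined at 10 genes that take up, carry, store and export iron or set the level of the iron hormone hepcidin, namely Hamp, Bmp6, Hfe, Tfr2, Tmprss6, Tf, Tfrc, Fth1, Slc40a1 and Slc39a14. A peak was assigned to a gene when its summit lay in the gene body or within 20 kb of it, and peaks were ranked within their own list by the −log10 p that the peak caller gave the summit. Of 50159 peaks in mouse liver, 97 fell at these genes. MEFs contributed 38 of 40531 peaks and Hep3B cells 14 of 14369. The genes were picked by their role and not by their peaks, but with earlier results of these data known.

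Iron circulates bound to transferrin, enters cells through the transferrin receptor, is stored in ferritin and leaves cells through ferroportin, which the hormone hepcidin removes from the membrane. Hepatocytes make most of the hepcidin and transferrin of the body. They sense iron through bone morphogenetic protein (BMP) signaling at their surface, where HFE and transferrin receptor 2 raise the signal and the protease TMPRSS6 lowers it.

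The data come from CUT&RUN, in which an antibody directs a nuclease to the chromatin that a protein occupies so that the freed DNA can be sequenced. There were 22 samples, which fell into 6 groups. Livers of untreated wild-type C57BL/6J mice aged 2 to 3 months were probed with a rabbit antibody against PROX1 itself (5 samples) or with rabbit IgG (5). Wild-type MEFs, taken from C57BL/6N embryos at E13.5, carried lentiviral rtTA and tetO-FLAG-mmProx1 and received 2 µg/ml doxycycline for 2 days before a rabbit FLAG antibody (3) or IgG (3) was applied. Hep3B, an established human hepatocellular carcinoma line, carried a lentiviral doxycycline-inducible human PROX1 under puromycin selection and was induced and probed in the same way (3 FLAG, 3 IgG). In both cultures the IgG samples carried the transgene too, so every culture sample overexpressed PROX1.

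Each deposited list pooled the antibody samples of a single group. The depth of single samples is thus unknown, the values below have no replicate spread, and no difference between lists was tested. Liver differed from both cultures in tissue, in antibody and in whether PROX1 was endogenous. According to the paper's methods, each liver sample also had more nuclei and more antibody. The liver list pooled 5 samples against 3 and had a higher floor, with a smallest peak area of 500 against 200. All these differences cannot be told apart. Summits within 1 kb of a transcription start site (TSS) lay in liver at 8 of 8 hepatocyte marker genes, 1 of 6 cholangiocyte, 1 of 5 erythroid and 1 of 7 fibroblast markers, and at 0 of 7 sinusoidal endothelial, 0 of 7 Kupffer cell and 0 of 5 stellate cell markers (26.6% of all genes). MEFs had them at 7 of 7 fibroblast, 2 of 7 endothelial, 2 of 6 cholangiocyte, 2 of 5 stellate cell and 1 of 5 erythroid markers, and at 0 of 8 hepatocyte and 0 of 7 Kupffer cell markers (55.4%). Hep3B cells, labelled as hepatocellular carcinoma, had them at 1 of 8 hepatocyte, 3 of 6 cholangiocyte, 2 of 5 stellate cell and 1 of 7 fibroblast markers, and at none of the endothelial, Kupffer cell and erythroid markers (44.5%). A peak marks occupancy and does not show whether the marker is expressed.

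The sequences around the summits on which the results turn were read from the plus strand of GRCm38 (mm10) or hg38, as 101 bases centred on the summit. Letters in capitals mark a match to one of the motifs searched on both strands, namely AGGTCA (the nuclear receptor hexamer), GGCGCC (a BMP-responsive element core), CACGTG (an E-box), TGACNNNGC (an antioxidant response element), ATCGAT, the CTCF core with at most 1 mismatch and the PROX1 consensus with at most 2 mismatches. GGCGCC can overlap the CTCF core. ATCGAT and the CTCF core were added after the sequences had been seen. The first group shows the highest-ranked printable summit of each list, then the strongest summit at Tf and at Hamp, the promoter summits of Tfr2 and the weaker of 2 promoter summits of Tmprss6. Stretches that touch an untranslated region are not shown, among them those of the peak that spans the Hamp start and of the stronger Tmprss6 promoter summit, 15 bp from the TSS.
Tmprss6, liver, rank 634, chr15:78471082-78471182: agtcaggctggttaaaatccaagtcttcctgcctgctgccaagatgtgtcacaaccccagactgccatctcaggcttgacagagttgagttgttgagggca
Slc39a14, MEFs, rank 2408, chr14:70351426-70351526: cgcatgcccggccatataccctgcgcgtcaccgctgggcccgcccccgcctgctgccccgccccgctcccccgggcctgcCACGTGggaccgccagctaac
TFR2 window at MOSPD3, Hep3B, rank 768, chr7:100611991-100612091: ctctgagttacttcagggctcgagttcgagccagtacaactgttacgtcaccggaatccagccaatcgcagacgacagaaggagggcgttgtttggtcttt
Tf, liver, rank 1007, chr9:103243941-103244041: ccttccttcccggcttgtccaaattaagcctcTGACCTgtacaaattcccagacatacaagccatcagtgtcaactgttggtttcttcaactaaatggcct
Hamp window in Usf2, liver, rank 6197, chr7:30952909-30953009: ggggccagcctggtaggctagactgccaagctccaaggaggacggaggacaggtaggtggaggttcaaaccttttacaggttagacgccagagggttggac
Tfr2 promoter, liver, rank 13213, chr5:137569684-137569784: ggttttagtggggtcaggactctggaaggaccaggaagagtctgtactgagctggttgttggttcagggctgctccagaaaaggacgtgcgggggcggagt
Tfr2 coding exon, liver, rank 19499, chr5:137571385-137571485: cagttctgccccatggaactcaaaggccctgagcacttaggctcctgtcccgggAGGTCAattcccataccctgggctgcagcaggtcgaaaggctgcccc
Tmprss6 promoter, intronic summit at 818 bp, liver, rank 26601, chr15:78467733-78467833: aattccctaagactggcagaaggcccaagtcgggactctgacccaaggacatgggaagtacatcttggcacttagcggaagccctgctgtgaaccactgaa
A further set was chosen after the values were seen. It shows a pair of intronic Tmprss6 sites that liver and MEFs share, a liver site downstream of Tmprss6 with the same kind of match, and an upstream FTH1 site of Hep3B cells.
Tmprss6 shared site A, liver, chr15:78447766-78447866: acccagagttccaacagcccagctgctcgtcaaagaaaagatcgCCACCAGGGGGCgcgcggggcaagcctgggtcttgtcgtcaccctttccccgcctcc
Tmprss6 shared site B, liver, chr15:78448374-78448474: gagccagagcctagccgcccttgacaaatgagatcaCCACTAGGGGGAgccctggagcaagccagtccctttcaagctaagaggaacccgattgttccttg
Tmprss6 downstream site, liver, chr15:78422702-78422802: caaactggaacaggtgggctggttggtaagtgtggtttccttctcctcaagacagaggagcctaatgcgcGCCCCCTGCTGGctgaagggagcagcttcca
FTH1 upstream site, Hep3B, chr11:61972020-61972120: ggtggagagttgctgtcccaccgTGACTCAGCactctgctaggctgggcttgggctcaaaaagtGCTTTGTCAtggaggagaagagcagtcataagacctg

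In liver, endogenous PROX1 had at least 1 peak at 10 of 10 iron handling genes, where 57.4% of all protein-coding genes had one. The genes carried a median of 8 peaks each against 1 over all 21829 mouse protein-coding genes. Per 100 kb of window the medians were 17.2 and 1.52 peaks, and the peaks covered a median of 12.4% of a member window against 0.553% over all genes. The 8 hepatocyte marker genes had a median of 12 liver peaks, and 46 further genes of iron metabolism a median of 4. A high count in liver was thus not particular to iron handling genes. Slc39a14 held 19 peaks, Tf 15, Tmprss6 14 and Hamp 11. Fth1 and Hfe held 8 each, Tfrc 7, Slc40a1 6, Tfr2 5 and Bmp6 4. By density, Hamp stood at the 99.4th percentile of all genes, Tf at the 98.6th, Slc39a14 at the 98.3rd and Tmprss6 at the 97.8th, while Bmp6 with its long gene body stood at the 55.7th.

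In MEFs, 10 of 10 genes also had a peak, against 75.5% of all genes, but the median was 4 peaks against 2 over all genes. Hfe reached the 95.7th percentile of density and Tfr2 the 88.8th, whereas Tf stood at the 33.7th and Slc40a1 at the 36.4th. Of these MEF peaks, 5 of 6 in the Hfe window and 3 of 5 in the Tfr2 window were nearest to a neighbouring gene, as was the only one at Tf. Liver had more peaks than MEFs at 8 of the 10 genes, an equal number at Tfr2 and Bmp6, and fewer at none. Over all mouse genes the balance lay the other way, with more liver peaks at 29.3% and fewer at 43.3%. These window counts include peaks nearest to neighbouring genes. Counting only summits nearest to the gene's own TSS, Bmp6 had 2 in liver and 4 in MEFs, and Hfe had 1 in each. At the remaining member genes liver still had more. In Hep3B, 9 of 10 genes had a peak, against 62.5% of the 19663 human genes, with a median of 1 in both sets. HFE had none, its closest summit lying 21192 bp from its TSS. When every list was limited to its 14369 strongest peaks, 28 member peaks remained in liver and 13 in MEFs, beside the 14 of Hep3B. They lay at 10 of 10 genes in liver (28.3% of all genes under the same limit) and at 8 of 10 in MEFs (59.0%), with the Hep3B list unchanged.

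**Figure D1:**
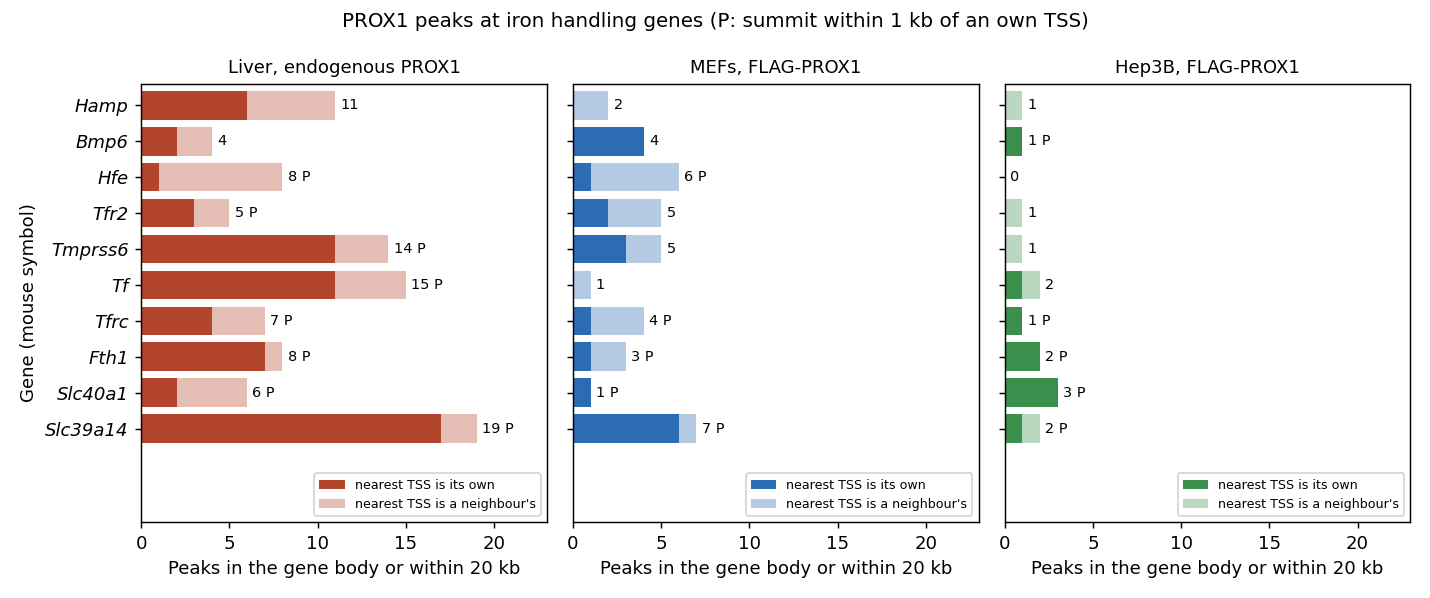
Number of PROX1 peaks (x axis) with a summit in the body of each iron handling gene or within 20 kb of it (y axis), in the liver, MEF and Hep3B lists. Dark bars count peaks whose nearest protein-coding TSS belongs to the gene, light bars those nearest to a neighbour, and P marks a summit within 1 kb of the gene's own TSS. Slc39a14 reaches 19 peaks in liver and 7 in MEFs.

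**Figure D2:**
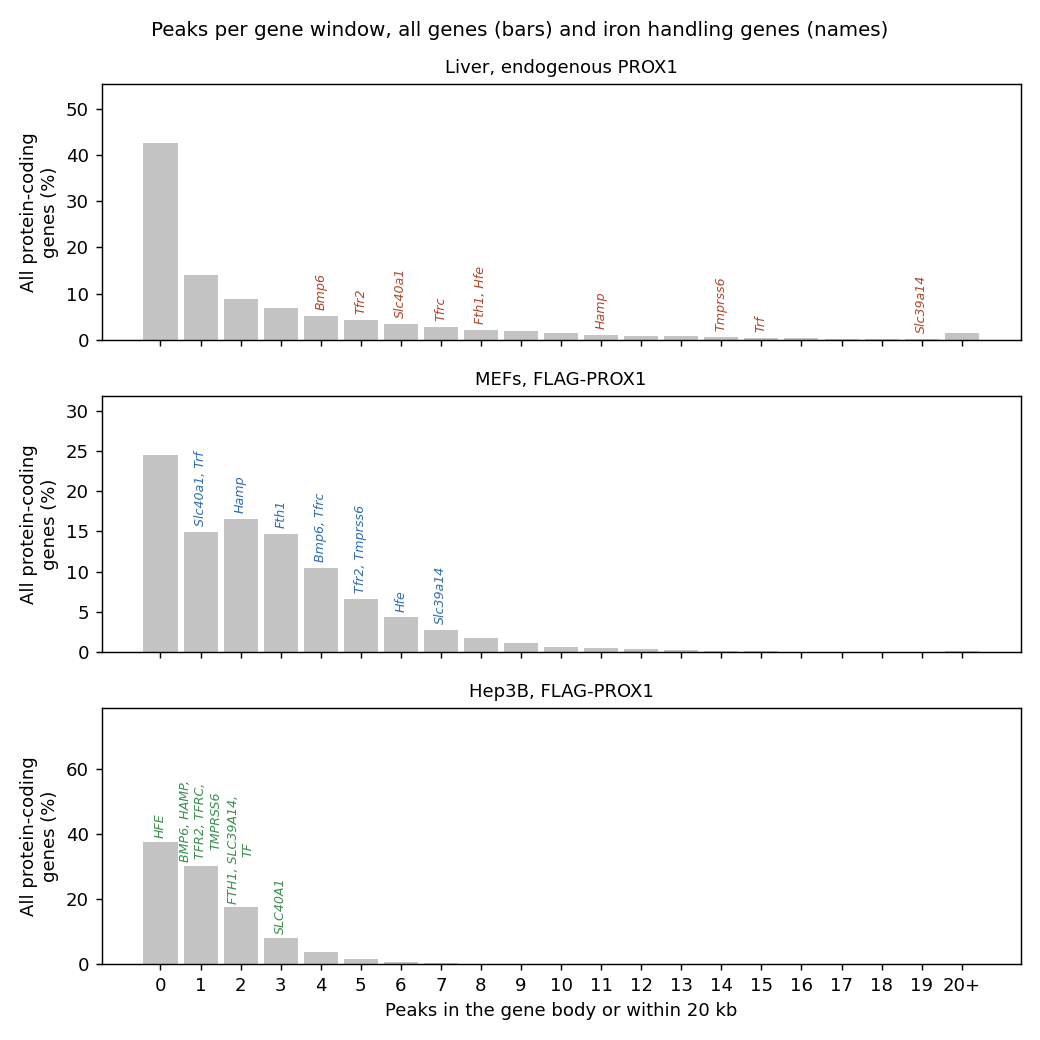
Share of all protein-coding genes (y axis, %) by the number of peaks in their window (x axis), per list, with the iron handling genes named above the bar they fall in (Trf is mouse Tf). In liver the 10 genes lie between 4 and 19 peaks, to the right of the bulk of genes, while in Hep3B they lie between 0 and 3.

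A window of this size reaches into neighbouring genes, so each summit was also assigned to its nearest protein-coding TSS. In liver, 64 of 97 summits (66.0%) were nearest to the iron gene itself, in MEFs 19 of 38 (50.0%) and in Hep3B 9 of 14 (64.3%). The share differed by gene. All but 2 of the 19 liver summits at Slc39a14 and all but 1 of the 8 at Fth1 were nearest to their own gene, against 1 of 8 at Hfe and 2 of 6 at Slc40a1. A summit within 1 kb of an own TSS, the distance used here for a promoter, was present at 8 of 10 genes in liver (26.6% of all genes), 5 of 10 in MEFs (55.4%) and 5 of 10 in Hep3B (44.5%). Only the liver count lay well above its background share. Tfrc, Fth1, Slc40a1 and Slc39a14 had a promoter summit in all 3 lists, Hfe in liver and MEFs, Tf, Tfr2 and Tmprss6 in liver alone, BMP6 in Hep3B alone, and Hamp in none. The share of all genes with each of these patterns was not computed, so they cannot be read as particular to iron genes. With both mouse lists limited as above, 4 of 10 genes had a promoter summit in liver (4.99% of all genes) and 2 of 10 in MEFs (33.9%).

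The hormone gene itself, Hamp (hepcidin, chr7:30942368-30944032, minus strand), is 1.67 kb long and lay inside a row of 11 liver peaks. The peak at chr7:30943813-30945991 spanned the Hamp TSS, yet its summit lay 1411 bp upstream, in an untranslated exon of the neighbour Usf2, at −log10 p 15.3 and the 76.4th percentile of the list. Within 2 kb of a TSS, Hamp would therefore count as occupied at its promoter. Peaks 6000 and 8927 bp upstream, both in introns of Usf2, were the strongest, at the 87.3rd and 87.6th percentile. Of the 11 liver peaks, 5 were nearest to Usf2, among them the one 8927 bp upstream, which lay 3280 bp from the Usf2 TSS. A group of 3 downstream peaks between 2548 and 3950 bp from the TSS reached the 64.7th. MEFs had 2 peaks and Hep3B 1, and every one of these was nearest to Usf2 or USF2, which encodes a bHLH factor, with summits 169, 687 and 518 bp from its TSS. No summit nearest to the hepcidin gene was listed outside liver. Mice carry a second hepcidin gene, Hamp2, next to Hamp. Fragments that match both copies cannot be assigned with certainty, and the authors' limit on mapping quality would drop those that match equally.

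Bmp6 (chr13:38345107-38500302), the ligand that reports iron load to hepatocytes and is made mainly by liver endothelium, had the fewest liver peaks of the set. Its 4 liver peaks lay 7178 bp and further from its TSS, the strongest at the 73.6th percentile, and 2 of them were nearest to Txndc5. The 4 MEF peaks ranked low, between the 7.21st and 43.0th percentile. Hep3B had a single BMP6 peak, 87 bp from the TSS at chr6:7725953-7726630 and at the 54.4th percentile, which made BMP6 the only gene with a promoter summit in Hep3B and in neither mouse list.

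Hfe (chr13:23702034-23710854), the protein altered in hereditary haemochromatosis, sits within a histone gene cluster. Its own liver summit lay 805 bp inside the gene, at −log10 p 12.4 and the 52.1st percentile, in a peak that also spanned a TSS. The MEF summit lay 51 bp from the TSS but at the 0.395th percentile, near the bottom of the list. The other peaks of the window were nearest to Hist1h1c, Hist1h2bc, Hist1h2ac or Hist1h4c, and included the strongest liver peak there, chr13:23728859-23730194 at rank 2474.

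Tfr2 (chr5:137569840-137587481), the iron-sensing receptor of hepatocytes, had 2 liver summits within 1 kb of its TSS. They lay 106 bp upstream (−log10 p 14.9, 73.7th percentile) and 630 bp downstream in coding sequence (13.3, 61.1st percentile). The latter carries an AGGTCA in the sequence printed above. The peaks 1591 and 14290 bp from a Tfr2 TSS carry it too, but the farther one is nearest to Mospd3. MEFs had no summit within 1 kb, and their closest lay 3972 bp away at the 34.6th percentile. The strongest member peak of both cultures fell in this window but at the promoter of the neighbour Mospd3 or MOSPD3, a membrane protein gene. In MEFs, chr5:137600174-137601681 held rank 327 (99.2nd percentile, −log10 p 10.2) with its summit 5 bp from the Mospd3 TSS. In Hep3B, chr7:100611955-100612873 held rank 768 (94.6th percentile, 8.67) at 61 bp, and it was the sole peak in the TFR2 window. Liver had the Mospd3 peak too, at the 67.8th percentile.

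Tmprss6 (chr15:78439667-78468634, minus strand), which encodes the hepatocyte protease matriptase-2, carried the strongest member peak in liver. It spanned chr15:78469972-78472556, 2585 bp wide, with its summit 2498 bp upstream of the TSS, at −log10 p 23.1, rank 634 and the 98.7th percentile. Further summits lay 15 bp (65.4th percentile), 818 bp, 1036 bp and 1597 bp from a TSS, and 11 of the 14 liver peaks were nearest to Tmprss6. Peaks at ranks 2056 and 2259 lay 3820 and 1796 bp from the TSS of Kctd17, the next gene. In MEFs no summit lay within 5 kb of a Tmprss6 TSS, and in Hep3B the single peak of the window was 101 bp from the KCTD17 TSS, 33187 bp from TMPRSS6.

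Tf (Trf in the mouse annotation, chr9:103204001-103230444, minus strand) encodes transferrin, the iron carrier of plasma. A series of liver peaks ran from the promoter, with a summit 402 bp upstream at the 78.2nd percentile, to 18268 bp upstream. In between, chr9:103242761-103244252, 13547 bp upstream, held rank 1007 (−log10 p 22.1, 98.0th percentile), the summit at 10994 bp held rank 1162 (21.8) and the one at 4335 bp rank 4324 (18.5). The peaks 9157, 13547 and 18268 bp upstream each carry AGGTCA within 50 bp of the summit. The only MEF peak in the window and the stronger of the 2 Hep3B peaks sat at the promoter of the downstream neighbour Srprb or SRPRB, a receptor subunit of the endoplasmic reticulum, at 74 and 94 bp from its TSS and at the 78.7th and 85.6th percentile. The other Hep3B peak lay 3237 bp upstream of TF at the 25.4th.

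Tfrc (chr16:32608920-32632794), the transferrin receptor of dividing cells, had a promoter summit in every list, 237 bp from the TSS in liver (51.4th percentile), 3 bp in MEFs (59.7th) and 85 bp in Hep3B (57.2nd). The strongest liver peak was 13312 bp upstream at the 78.7th percentile. The remaining peaks downstream were nearest to Tnk2, a tyrosine kinase gene, in 3 of 7 cases in liver and 3 of 4 in MEFs.

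Fth1 (chr19:9980598-9985098), the ferritin heavy chain that oxidises iron for storage, showed a different balance between promoter and upstream peaks. The liver promoter summit, 356 bp from a TSS, stood at −log10 p 8.00 and the 3.29th percentile of its list, while chr19:9976836-9977633, 3258 bp upstream, held rank 2885 (−log10 p 19.6, 94.2nd percentile) and 5 other peaks lay between 1776 and 16993 bp upstream. In MEFs the promoter summit, 15 bp from the TSS, stood at −log10 p 6.77 and the 69.0th percentile of the MEF list, and no peak lay upstream. The lists differ in length and in their lowest values, so a percentile places a peak within its own list alone. Hep3B had the FTH1 promoter at the 65.9th percentile and a peak 4436 bp upstream at the 21.2nd, whose sequence above holds TGACNNNGC once on each strand.

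Slc40a1 (chr1:45908068-45926523, minus strand) encodes ferroportin, the only known iron exporter of mammalian cells. Its liver peak chr1:45923215-45926332 was the widest of all at these genes, 3118 bp, with its summit 896 bp inside the gene at rank 2989 (−log10 p 19.6, 94.0th percentile). It overlapped the sole MEF peak of the window, whose summit 85 bp from the TSS stood at the 59.0th percentile. In Hep3B the 3 SLC40A1 peaks lay 63, 5907 and 27624 bp from a TSS, between the 7.69th and 33.0th percentile.

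Slc39a14 (ZIP14, chr14:70303469-70351425, minus strand) imports iron that is not bound to transferrin. Most of its 19 liver peaks lay in introns, led by chr14:70339082-70340724 at rank 3242 (93.5th percentile). At the outermost promoter liver and MEF peaks overlapped. The summit 51 bp from the TSS was the strongest own-gene peak of MEFs (chr14:70350995-70351690, rank 2408, −log10 p 8.63, 94.1st percentile) and carries a CACGTG. The overlapping liver peak, with its summit 82 bp away, had a −log10 p of 7.73, which placed it at the 2.12th percentile of the liver list. The −log10 p was not scaled between lists, so the 2 values cannot be compared as strength of occupancy. Liver also had a summit 23 bp from an inner TSS at the 82.6th percentile. In Hep3B the SLC39A14 promoter summit, 5 bp from the TSS, stood at the 23.4th.

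**Figure D3:**
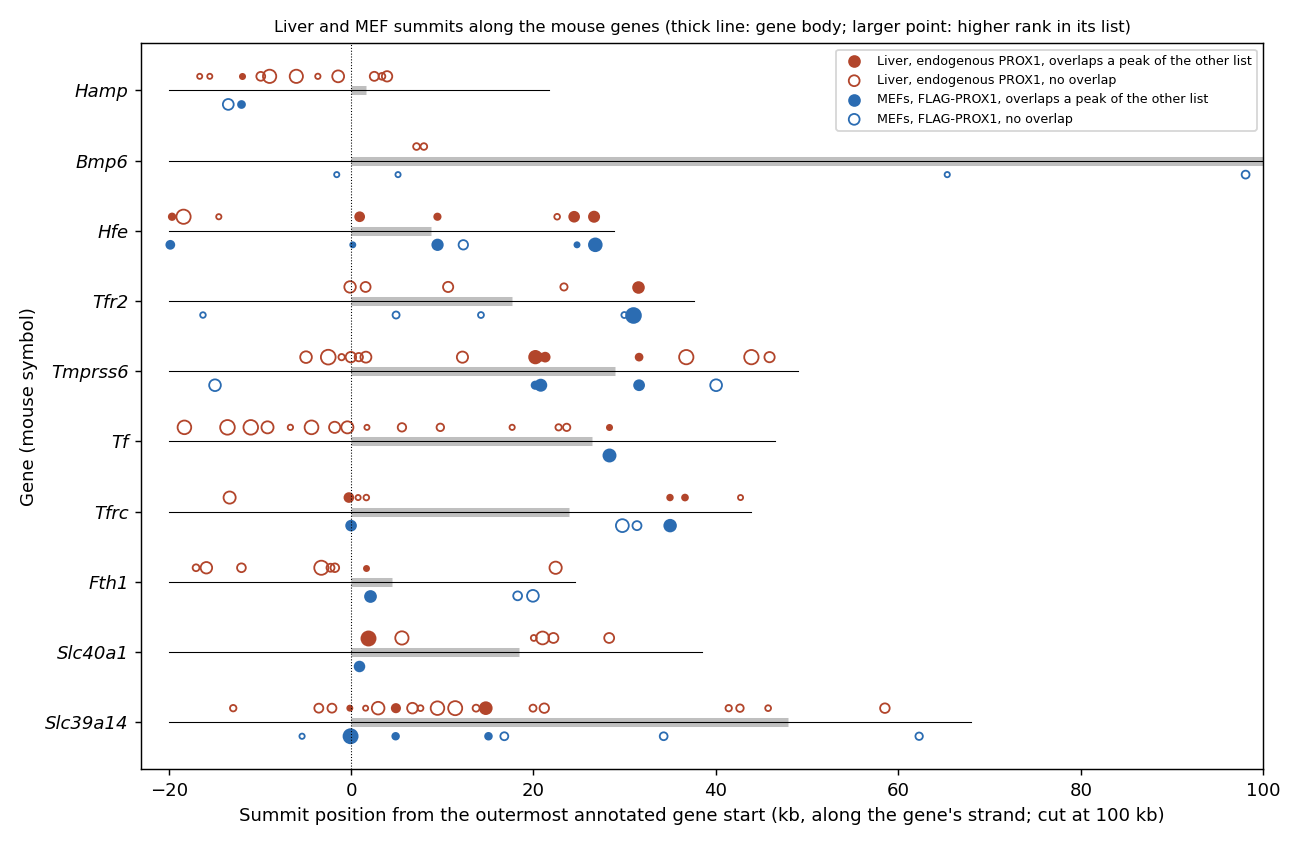
Position of each liver and MEF summit (x axis, kb from the outermost annotated gene start along the gene's strand) for the 10 mouse genes (y axis). Thick lines are gene bodies, point size grows with the rank in the list, and filled points overlap a peak of the other list. The axis ends at 100 kb, which leaves out 2 liver summits of the Bmp6 window. Tf, Tmprss6 and Fth1 show rows of upstream liver summits that overlap no MEF peak. Such a lack of overlap is not particular to these genes. Of distal liver peaks, 11.8% at the 10 genes and 11.2% in all gene windows overlap a MEF peak.

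Member peaks spread over the whole range of strength. The median rank percentile of member peaks was 52.0 for liver (95% interval of the median 44.0 to 61.0). For MEFs it was 47.6 (37.5 to 60.9) and for Hep3B 43.7 (23.4 to 62.8). The peaks of all gene windows had medians of 48.6, 51.5 and 51.6. In liver, 12 of 97 member peaks (12.4%) stood in the top decile of the list, against 9.71% of all window peaks. They comprised 3 peaks in the window of Tmprss6, 4 at Tf, 2 at Slc39a14 and 1 each at Hfe, Fth1 and Slc40a1. Not all were nearest to the iron gene. The Tmprss6 peaks at ranks 2056 and 2259 were nearest to Kctd17, and the Hfe peak to Hist1h1c. The Tf peak 18268 bp upstream was nearest to 1300017J02Rik. In MEFs, 2 of 38 (5.26%, against 11.3%) and in Hep3B 1 of 14 (7.14%, against 10.9%) stood there. These intervals, and the Wilson intervals below, cover counting error alone, and peaks of a gene share its locus.

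**Figure D4:**
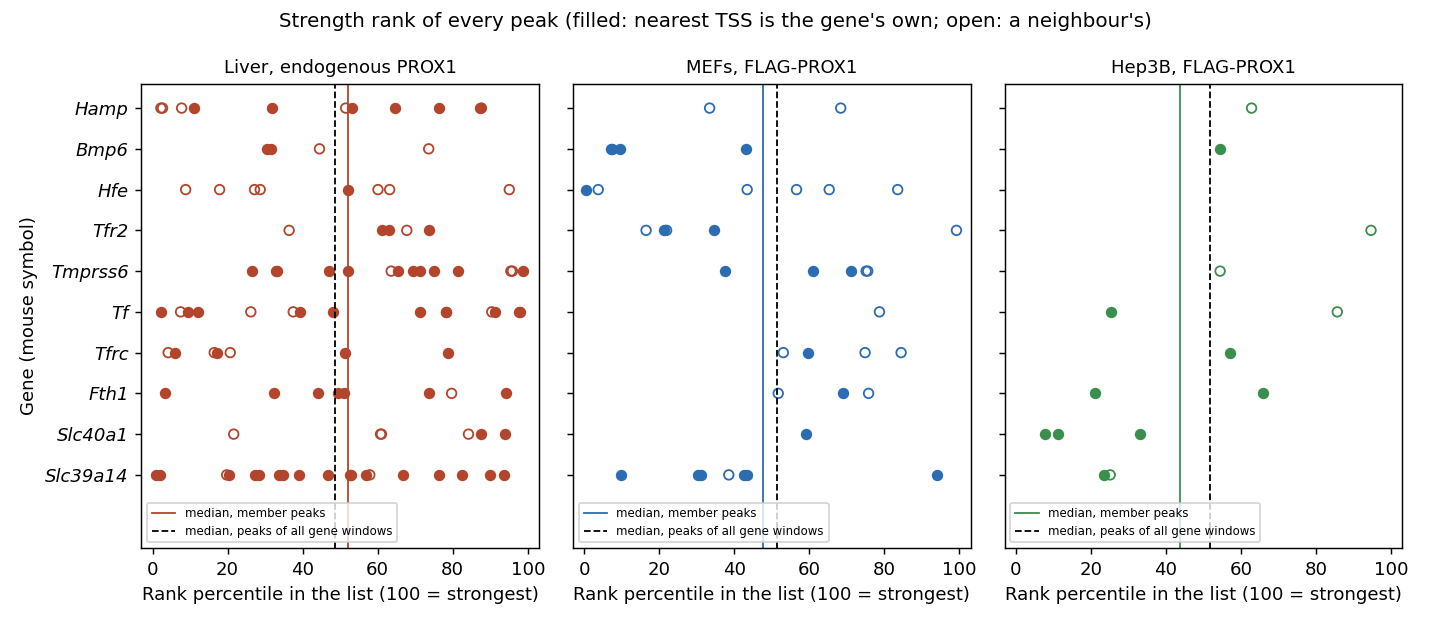
Rank percentile of every member peak within its list (x axis, 100 = highest −log10 p) by gene (y axis). Filled points are nearest to the gene's own TSS and open points to a neighbour's. The solid line is the median of member peaks (52.0 in liver, 47.6 in MEFs, 43.7 in Hep3B) and the dashed line that of the peaks in all gene windows. The highest points of MEFs and Hep3B are the open ones at Tfr2.

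By annotation, 45 liver member summits lay in introns, 41 between genes, 3 in coding exons, 6 in untranslated regions and 2 in non-coding exons. In MEFs the numbers were 16, 10, 2, 6 and 4, and in Hep3B 2, 7, 1, 4 and 0. Shares of these classes over the whole lists were not computed, so they cannot be read as particular to iron genes. A nearest TSS of any gene lay within 1 kb of 21 of 97 liver, 18 of 38 MEF and 10 of 14 Hep3B summits. Of these, 6, 12 and 5 belonged to neighbours. Among the peaks of all gene windows, 7250 of 41488 in liver and 12984 of 33327 in MEFs lay that close to a TSS. The Hep3B number was not computed. The member peaks were 660 bp wide in the median in liver (504 over the whole list), 582.5 bp in MEFs (646) and 612 bp in Hep3B (634), with a median GC content of 48.9%, 52.3% and 65.0% (47.0%, 51.2% and 59.1% over the whole lists).

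Liver and MEFs share a genome build, so their sites could be laid over each other. Of 97 liver member peaks, 20 (20.6%, Wilson interval 13.8 to 29.7) overlapped a MEF peak by at least 1 bp, close to the 21.1% of all liver peaks in gene windows. Seen from MEFs, 18 of 38 member peaks (47.4%, 32.5 to 62.7) overlapped a liver peak, against 23.9% in all gene windows. Of these, 5 lay in the Hfe window, and several were nearest to histone genes, Usf2, Srprb, Tnk2 or Mospd3. Liver peaks also covered a median of 12.4% of a member window against 0.553% over all genes. The bearing of this coverage on the MEF share was not tested. By place, 11 of 21 liver member peaks at a promoter of any gene were shared (52.4%, against 67.6% of such peaks in all gene windows) and 9 of 76 distal ones (11.8%, against 11.2%). The MEF numbers were 10 of 18 (55.6%, 33.7 to 75.4, against 35.7%) and 8 of 20 (interval 21.9 to 61.3, against 16.4%). At Hamp, Tf and Tfr2 the single shared liver peak was that of Usf2, Srprb or Mospd3, so none of the liver summits nearest to these 3 genes had a MEF counterpart. Bmp6 shared none. The Hfe window shared 5 of 8 and the Tmprss6 window 4 of 14 liver peaks. At Hfe, only the shared peak with its summit 805 bp from the TSS was nearest to Hfe itself. Its MEF partner stood at the 0.395th percentile of the MEF list. The other shared peaks there were nearest to Hist1h2bc, Hist1h4c or Hist1h1c.

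The 4 shared Tmprss6 peaks were distal, and in 3 of them the summits nearly coincided. At 5380 bp from a TSS, in an untranslated exon of Kctd17, the liver and MEF summits fell on the same base, chr15:78437055, at the 32.9th and 60.9th percentile. In an intron, site A of the printed set had summits 20 bp apart (33.1st and 71.1st percentile) and site B summits 13 bp apart (81.4th and 37.5th). The other liver peak, at the 52.0th percentile, overlapped the MEF peak of site A with its summit 487 bp away. Sites A and B hold a CTCF core, exact in A and with 1 mismatch in B. Among all member peaks the core lay within 50 bp of 4 of 97 liver summits (4.12%, against 3.24% of the whole list), 6 of 38 MEF summits (15.8%, against 16.5%) and 1 of 14 Hep3B summits (7.14%, against 8.85%). In liver, 3 of the 4 were among the 9 shared distal peaks (sites A and B and a peak near Hist1h4c) and 1 among the 67 distal peaks that were not shared. Over all gene windows the same classes held it in 13.1% and 2.24% of liver peaks. In MEFs it stood at 3 of 8 shared and 3 of 12 unshared distal member peaks, where all gene windows gave 22.2% and 23.4%. A match is a run of letters and does not show that CTCF was bound.

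AGGTCA lay within 50 bp of 14 of 97 liver member summits (14.4%, interval 8.80 to 22.8; whole list 16.5%), 2 of 38 in MEFs (5.26%; 6.00%) and 0 of 14 in Hep3B (0.0%, interval up to 21.5; 4.99%). The PROX1 consensus, with at most 2 mismatches in the peak widened by 20 bp, was found in 16 of 97 liver (16.5%, interval 10.4 to 25.1; whole list 14.1%), 11 of 38 MEF (28.9%, 17.0 to 44.8; 15.3%) and 3 of 14 Hep3B member peaks (21.4%, 7.57 to 47.6; 13.3%). The MEF share lay above that of its list at this limit alone. With at most 3 mismatches it was 73.7% against 73.8%, and with at most 1 it was 0.0% against 0.982%. Of the 11 MEF peaks, 5 were nearest to a neighbour. Among the 64 liver summits nearest to the iron gene itself, 7 held AGGTCA within 50 bp. GGCGCC was present at 2, 2 and 0 member summits in liver, MEFs and Hep3B (1.43%, 4.97% and 9.74% of the lists), CACGTG at 3, 3 and 1 (1.65%, 2.63% and 3.24%), TGACNNNGC at 4, 1 and 1 (5.38%, 6.04% and 5.63%) and ATCGAT at 1, 0 and 0 (1.09%, 0.323% and 0.306%). In the Hamp window GGCGCC fell in the Usf2 peak and at no summit nearest to Hamp.

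For context, 46 further genes of iron metabolism were examined in the same way. In liver 38 of them (82.6%) had a peak in the window and 26 (56.5%) at the promoter, in MEFs 42 (91.3%) and 35 (76.1%), and in Hep3B 37 (80.4%) and 26 (56.5%), to be read against the shares of all genes given above. The promoter shares of this wider list thus lay above those of all genes in each of the 3 lists, whereas for the 10 genes they did so by a wide margin in liver alone. Among 16 regulators of hepcidin, liver had promoter summits at 9 (56.2%), MEFs at 14 (87.5%) and Hep3B at 10 (62.5%). Among 7 genes of ferritin and iron sensing liver had 5, MEFs 7 and Hep3B 6. Of 11 genes of iron transport and reduction, liver had one at 6 (54.5%), MEFs at 5 (45.5%) and Hep3B at 4 (36.4%), and the shares of both cultures lay below those of all genes. Of 9 genes of haem handling, 6 had one in liver, 6 in MEFs and 4 in Hep3B. Hjv, the BMP co-receptor of hepatocytes, had a promoter summit in Hep3B. In liver it had 5 peaks, and the strongest of the 4 nearest to it (chr3:96524119-96526637, rank 6389, 87.3rd percentile) had its summit 1120 bp from the TSS, just outside the promoter distance. No MEF peak lay in its window.

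The genes were ordered by the highest-ranked peak nearest to the gene itself. Liver was led by Acvr1, a BMP type I receptor (rank 71, 4474 bp from the TSS). Ireb2, an iron regulatory protein, followed (rank 344, 10525 bp). Next came the haem exporter gene Abcg2 (rank 482, 655 bp) and Aco1, the other iron regulatory protein (rank 543, 38875 bp). MEFs were led by Aco1 (rank 190, 273 bp from the TSS) and Stat3, which relays interleukin-6 to hepcidin (rank 541, 116 bp). The importer gene Slc11a2 (rank 902, 59 bp) and Slc25a28, a mitochondrial iron carrier (rank 1117, 346 bp), came next. Hep3B was led by STAT3 (rank 9, 92 bp from the TSS). The BMP targets ID1 (rank 271, 7681 bp) and SMAD6 (rank 952, 1026 bp), both without a promoter summit, and HJV (rank 1230, 1181 bp) followed. A promoter summit was present in all 3 lists at 14 of the 46, namely Bmpr1a, Acvr1, Bmpr2, Smad5, Il6ra, Stat3, Ftl1, Ncoa4, Aco1, Pcbp2, Slc11a2, Steap3, Hmox1 and Slc46a1. The share of all genes with a promoter summit in all 3 lists was not computed, so this count cannot be read as particular to iron genes.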

How the data were processed

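PROX1 CUT&RUN was profiled in mouse liver, MEFs and Hep3B cells. According to their methods, the authors trimmed reads with Trim Galore (version 0.6.6) and aligned them with Bowtie2 (2.4.2) to mm10 or hg38. They ran Genrich (0.6.1) without duplicates, mitochondrial reads and reads of low mapping quality. A lenient q limit was set to obtain 1 consensus list per group. The sites are described as relative to IgG, but the command shown names no control. The signal column as deposited sums, over a peak, the area that its significance curve encloses, computed by the authors' caller. A summit's −log10 p and its −log10 q were both calculated by the authors with that caller before deposit. No value was scaled between lists: the smallest area was 500 in liver and 200 in each culture, and the smallest −log10 q was 4.03, 1.16 and 1.22. The deposited score, capped by the caller, was not used.

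Summits were placed against protein-coding genes of GENCODE M21 (mouse) and GENCODE 44 (human), and 0 mouse and 0 human peaks ended beyond a chromosome. Mouse Tf is named Trf there. Where a symbol had several gene models, the longest was kept. Sequences came from the GRCm38 and hg38 genomes. The PROX1 consensus and the CTCF core were written from general knowledge and are not the study's matrix. Genes, lists and motifs were chosen with earlier results of these data known. All 10 genes are named. Of the wider list, those with the 4 highest-ranked own peaks per list and those with a promoter peak in all 3 lists are named, and neighbours where a member peak lies nearest to them. Python 3.11.15, pandas 2.3.3 and SciPy 1.17.1 were used, and the counting steps were tested on simulated data. No model was fitted and no p-value computed. Wilson intervals are at the 95% level. Alternatives were other windows, promoter distances, thresholds, overlap rules, ranks and mismatch limits.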

Additional observations from a re-analysis of the deposited data

How the results depend on the processing

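Of 96 alternative values, 64 stayed within 1.5 times the reported count or within its interval and 32 did not. No paired analysis was possible because each list pools its samples, which also prevented leaving out a replicate. The number of member peaks in liver, MEFs and Hep3B was 37, 15 and 4 in gene bodies alone, 63, 21 and 8 with 5 kb and 64, 19 and 9 when the nearest TSS had to be the gene's own. With 50 kb it rose to 68 in MEFs and 34 in Hep3B. In gene bodies alone, 3 genes had a Hep3B peak. At the liver area floor MEFs and Hep3B had 16 and 6 member peaks, with promoter summits at 3 genes each. With 14369 top peaks per list, 28 member peaks were left in liver and 13 in MEFs, with promoter summits at 4 and 2 genes, against 4.99% and 33.9% of all genes. Ranked by area, the liver median percentile was 62.5. The PROX1 consensus was found in 1.03%, 0.0% and 0.0% of member peaks with 1 mismatch (0.869%, 0.982% and 1.04% of the lists) and in 75.3%, 73.7% and 64.3% with 3 (69.0%, 73.8% and 70.9%). With summits within 100 bp, 8.25% of liver and 21.1% of MEF member peaks were shared, and 13.4% of liver peaks at the liver area floor in MEFs. The CTCF core with no mismatch, added after seeing the data, was at 5.26% of MEF and 0.0% of Hep3B member summits. Beyond the smaller or larger sets these settings test by construction, the cause was not tested. Depth per sample was unknown, so a gene without a listed peak cannot be called unoccupied.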
